A study of Homo sapiens with 4 samples.

Results

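The mRNAs described here encode the forkhead (FOX) and SOX transcription factors, examined for N7-methylguanosine (m7G) peaks in U2OS cells. Members were the peaks whose gene name is FOX, a letter and a digit, or SOX and a number, and annotated family members without a peak were counted as such. The RefSeq gene table held 70 protein-coding family members, 51 forkhead genes (with the copies FOXD4L1 and FOXD4L3 to FOXD4L6 and FOXO3B) and 19 SOX genes. Of these, 19 had a peak in at least 1 table, out of 4340 protein-coding genes with a peak in all. They held 25 of 4326 peaks in m7G immunoprecipitation (IP) replicate 1 and 26 of 4862 in replicate 2. FOXL2NB, which is named for its neighbour and encodes no forkhead domain, was not counted.

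U2OS is an established human osteosarcoma line, grown here without treatment. Poly(A) RNA was isolated, and an antibody against m7G was used to pull down RNA fragments. The series has 2 m7G IP and 2 input libraries, all of this 1 line with no second condition. The files used here are the 2 peak tables, 1 for each IP replicate. Every fold is the authors' own enrichment of IP over input at that peak. No read counts are given and depth is unknown, so the 2 replicate values are given side by side in place of an error. Nothing in the labels says that the replicates came from separate cultures, so the spread between them may be technical.

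m7G is a guanine with an added methyl group that gives it a positive charge. It forms the cap at the start of every mRNA made by RNA polymerase II and has also been mapped inside mRNAs, tRNA and rRNA, where the METTL1 and WDR4 enzyme installs it in tRNA. Forkhead proteins bind DNA through a winged-helix domain, and SOX proteins through an HMG box that bends the DNA. Both families set cell identity during development, and several members act in the skeleton: SOX9 with SOX5 and SOX6 drives cartilage formation, and SOX4, SOX11 and SOX12 act in mesenchymal and neural progenitors. FOXO factors respond to insulin signalling through AKT, and FOXM1 drives genes of the G2 and M phases of the cell cycle.

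Among markers of the cell type, 5 of 11 osteoblast and mesenchyme genes had a shared peak, meaning 1 found at the same place by both replicates. Of all annotated protein-coding genes, 10.5% had one. CDH2, which encodes N-cadherin, was the strongest of them at 6.57-fold and 10.5-fold in replicates 1 and 2, followed by COL1A1 at 4.60 and 6.38 and SPARC at 2.67 and 1.72. RUNX2, ALPL, TWIST1, PRRX1, CDH11 and COL1A2 had none. Of 6 haematopoietic and 4 hepatocyte markers, 0 had a peak in either table, beside 4340 of all 20056 protein-coding genes. Lists this short would hold few such genes in any case, so their counts are not read as absence of a lineage. Epithelial markers had a shared peak on 2 of 5 (CLDN4 at 3.57 and 3.77, KRT18 at 2.39 and 1.88), and neuronal markers on 2 of 6 (SLC17A7 at 7.62 and 12.5, NEFL at 1.97 and 3.50). Expression level is not measured in these tables, and their part in the family results was not tested.

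The minimum for a shared peak was an overlap of 1 bp between the same-strand blocks of both tables. On forkhead and SOX genes 17 shared peaks were found, on 11 of 70 genes (15.7%), beside 10.5% of all 20056 annotated protein-coding genes. By replicate, 16 members had a peak in replicate 1 (22.9%, beside 15.9% of all) and 16 in replicate 2 (22.9%, beside 17.4% of all). Among genes with a peak in either table, 11 of 19 members (57.9%) had a shared one, beside 48.4% of all such genes. The ZNF genes, which belong to the zinc finger class of transcription factors, had a shared peak on 26 of 517 (5.03%). The member shares therefore lay a few percentage points above those of all genes, and with a single condition and no counts no test of that gap was made. A gene that is not transcribed cannot carry a peak, so low coverage of a subfamily and lack of its mRNA cannot be told apart.

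Of the subfamilies with more than 1 member, SOXC and FOXK were covered in full. All 3 genes of the SOXC group (SOX4, SOX11 and SOX12) and both FOXK genes (FOXK1 and FOXK2) carried a shared peak. Single shared members were FOXD1 of 9 FOXD genes, FOXF2 of 2 FOXF genes, FOXO6 of 5 FOXO genes, FOXP4 of 4 FOXP genes, SOX2 of 3 SOXB1 genes, and FOXM1, which is alone in its class. FOXO3 and SOX13 had peaks in both tables but at different places. FOXD2, FOXJ2 and FOXJ3 had peaks in replicate 1 alone, and FOXC1, FOXH1 and SOX6 in replicate 2 alone. The remaining 51 genes had no peak in either table. A peak in at least 1 table was found on 19 of 70 members, beside 4340 of all 20056 protein-coding genes. Lack of a peak was thus the usual state over all genes as well.

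**Figure D1:**
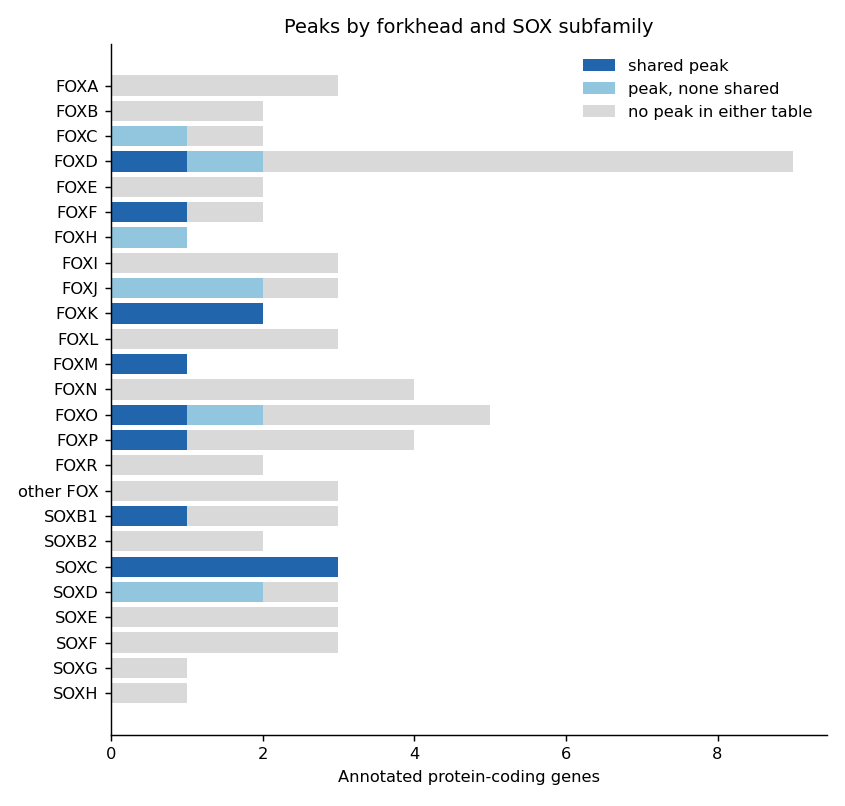
Number of annotated protein-coding genes in each forkhead and SOX subfamily (horizontal axis) by their peaks: dark blue, a peak shared by both replicates; light blue, a peak but none shared; grey, no peak in either table. FOX classes with a single gene and no peak share the bar named other FOX. The SOXC bar (3 genes) and the FOXK bar (2 genes) are dark blue throughout, and 13 of the 25 bars are grey throughout.

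Genes without a peak included known regulators of lineages other than bone, but so did those with a shared peak, such as SOX2 and FOXO6. No link between lineage and peaks was tested. Without a peak were the liver and foregut pioneer factors FOXA1, FOXA2 and FOXA3, the regulatory T cell factor FOXP3 and the thymic epithelium factor FOXN1. The ovarian factor FOXL2 and the endothelial and endodermal factors SOX7, SOX17 and SOX18 had none. FOXC2 and FOXF1, whose class partners FOXC1 and FOXF2 had a peak in at least 1 table, had none as well. SOX9, SOX5 and the neural crest factor SOX10 had none either. FOXO1, FOXO4, FOXP1, FOXN2 and FOXN3, which are widely expressed in human tissues, had none. The genes FOXD4, FOXD4L1 and FOXD4L3 to FOXD4L6 are near-identical copies of each other, as FOXO3B is of FOXO3, so reads from any of them may have been lost or split and their lack of a peak is uncertain.

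In 4 genes, FOXK2, FOXM1, FOXP4 and SOX12, a peak reached into the window from 250 nt before to 50 nt after the annotated start, where the capped end of the mRNA lies. The RefSeq sequences of this window (GRCh38.p14, plus strand, 5′ to 3′) are shown for FOXK2, FOXP4 and SOX12. Their peaks touch the first 50 nt of the annotated gene, as does that of FOXM1, which had no sequence for this window. Capitals mark the bases inside a peak of either replicate. The FOXK2 window is chr17:82519482-82519781 with 34 such bases (replicate 1), the FOXP4 window chr6:41546131-41546430 with 5 (both replicates), and the SOX12 window chr20:325302-325601 with 31 (replicate 1).
FOXK2: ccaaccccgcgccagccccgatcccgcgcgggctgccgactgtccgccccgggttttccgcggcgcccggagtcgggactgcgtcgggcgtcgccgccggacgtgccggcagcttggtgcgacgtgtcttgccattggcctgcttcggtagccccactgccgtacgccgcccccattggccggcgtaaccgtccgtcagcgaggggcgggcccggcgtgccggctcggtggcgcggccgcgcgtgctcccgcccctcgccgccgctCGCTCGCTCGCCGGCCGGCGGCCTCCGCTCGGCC
FOXP4: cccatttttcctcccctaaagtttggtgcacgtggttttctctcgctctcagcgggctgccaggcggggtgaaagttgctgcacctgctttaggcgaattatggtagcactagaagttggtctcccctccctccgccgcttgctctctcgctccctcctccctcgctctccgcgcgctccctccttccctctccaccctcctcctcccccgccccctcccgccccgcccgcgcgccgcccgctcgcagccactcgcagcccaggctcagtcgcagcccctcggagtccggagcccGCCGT
SOX12: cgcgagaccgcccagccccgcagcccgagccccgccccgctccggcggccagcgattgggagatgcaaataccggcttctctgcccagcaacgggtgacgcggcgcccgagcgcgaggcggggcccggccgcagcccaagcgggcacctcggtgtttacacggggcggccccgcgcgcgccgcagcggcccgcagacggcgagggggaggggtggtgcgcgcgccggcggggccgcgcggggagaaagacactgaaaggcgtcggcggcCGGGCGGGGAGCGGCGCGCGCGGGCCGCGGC

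All 3 windows are rich in G and C, with a GC content of 79.0% for FOXK2, 67.7% for FOXP4 and 80.3% for SOX12, and 55, 27 and 54 CpG dinucleotides. Over the 9 members with a shared peak and a window in the table the median GC content was 71.0%, from 49.3% at SOX4 to 84.3% at FOXK1. It was 63.7% over 41 members without a shared peak, 68.7% over 1710 protein-coding genes with a shared peak and 62.7% over 15843 protein-coding genes in all. The median of shared genes of these families thus lay above that of all genes, as did that of shared genes in general. It did not hold for each member: SOX4 (49.3%) and FOXD1 (59.7%) lay below the median of all genes, and SOX2 (63.3%) near it. Most of each window lies before the annotated start. In the 50 nt after the start, the median GC content was 74.0% for shared members and 72.0% for all shared genes. Over all protein-coding genes it was 64.0%, and SOX4 (52.0%) and SOX2 (36.0%) lay below that. SOX11 and FOXM1 had no window.

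SOX12 carried the most significant member peaks. Its gene (chr20:325552-330224, plus strand) is known to lack introns, so distance from the gene start is distance along the mRNA, and the capital letters above show where its first peak begins. That first peak, from 325571 to 326138 in replicate 1 and from 325631 to 326078 in replicate 2, had 3.34-fold and 2.20-fold enrichment. The second, from 326228 to 326825 and from 326287 to 326795, had 12.3 and 11.7. The third lay from 327034 to 327243 in both replicates and had 1.88 and 1.65. Both replicates gave the same order, with the middle peak highest and the last lowest. The middle peak had a log10 p of -213 and -217, which ranked 11 of 4326 and 18 of 4862 peaks by p-value. The 3 peaks together covered 29.4% of the gene in replicate 1 and 25.0% in replicate 2. Among 261 genes spanning up to 5000 nt with a shared peak, the median share covered was 8.09% and 8.79%, but many of those genes have introns.

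SOX4, which promotes progenitor survival and the mesenchymal state, also had 3 shared peaks and also lacks introns (chr6:21593751-21598619, plus strand). Their midpoints lay 1314, 2264 and 2945 nt from the start. The first had 4.74-fold and 4.43-fold enrichment in replicates 1 and 2, the second 2.50 and 4.37, and the third 3.05 and 2.73. The first was highest in both replicates, while the other two changed order between them. Unlike at SOX12, the peaks of SOX4 began no nearer to the start than 1217 nt, and they covered 12.4% and 16.0% of the gene.

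SOX11, the third SOXC gene, is expressed chiefly in neural and mesenchymal development. It had 1 shared peak, with identical borders in both replicates (chr2:5694644-5694794, plus strand, 2335 nt from the start). Its fold was 74 in replicate 1 and 30 in replicate 2, the highest of the family in both tables and 11th and 82nd of all peaks by fold. Its p-values were weak, with a log10 p of -4.59 and -4.97 and ranks of 2958 and 3022. Both folds were whole multiples of the most frequent high fold of their table, 4 times 18.5 and 3 times 10. Such multiples made up 53.0% of replicate 1 peaks and 29.1% of replicate 2 peaks at or above those values. The SOX11 replicates differed by 1.30 on the log2 scale, more than 95% of shared peaks, whose limit was 1.28. SOX11 was thus high in both replicates, and its size differed between them more than that of any other member peak.

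SOX2, a pluripotency and neural stem cell factor, had a weak shared peak with its midpoint 440 nt from the start (2.76-fold and 2.92-fold). Replicate 1 held a second peak 896 nt from the start (4.38-fold), which did not overlap any of replicate 2. SOX2 lies within SOX2-OT, a long noncoding RNA transcribed from the same strand, so reads of the 2 genes cannot be told apart here.

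**Figure D2:**
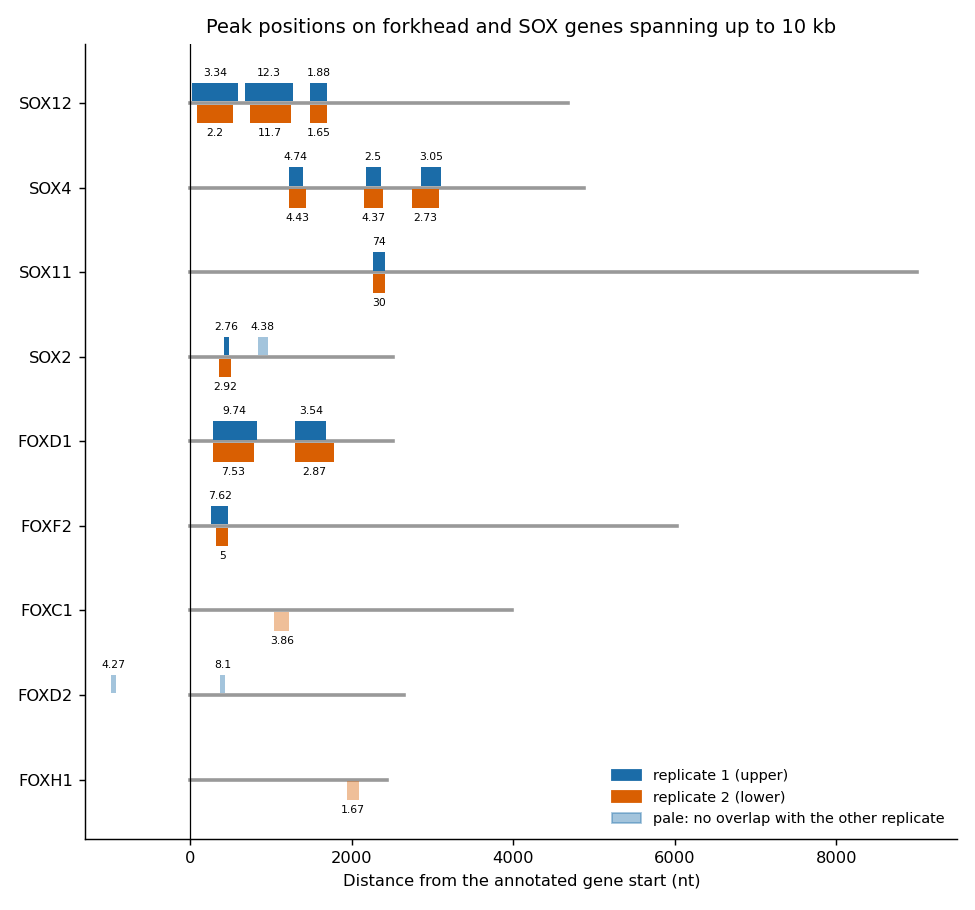
Peaks on the forkhead and SOX genes with a peak that span up to 10 kb, by distance from the annotated gene start in nt; grey lines are gene spans, upper blue bars are peaks of replicate 1, lower orange bars peaks of replicate 2, numbers are folds, and pale bars overlap no peak of the other replicate. SOX12 and SOX4 have 3 overlapping pairs each and FOXD1 has 2, and the earlier FOXD2 peak lies before the gene start.

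FOXD1, a factor of kidney stroma and other mesenchyme whose gene also lacks introns, was the forkhead counterpart of SOX12. Its first peak (chr5:73447959-73448497, minus strand, in replicate 1) had 9.74-fold and 7.53-fold enrichment with a log10 p of -100 and -77.2, ranking 46 and 88 by p-value. Its second, with a midpoint 1512 nt from the start, had 3.54 and 2.87. The peaks covered 36.9% and 39.3% of the gene, the largest shares of the family. FOXF2, a mesenchymal factor of gut and palate, had 1 shared peak 378 nt from the start with 7.62 and 5.00. The span of FOXF2-DT, on the opposite strand, also covers it.

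Both FOXK genes, which encode repressors active in metabolism and autophagy control, had their shared peak close to the gene start. FOXK2 had 10.3-fold and 6.11-fold enrichment at 218 nt (chr17:82519748-82520107, plus strand, in replicate 1), and this is the peak whose first bases are in capitals above. FOXK1 had 8.64 and 5.71 at 214 nt (chr7:4682389-4682568, plus strand, in replicate 1). In both genes replicate 1 was higher, by 0.75 and 0.60 on the log2 scale. Both also had peaks toward the other end that did not overlap between replicates. FOXK2 had one in replicate 2 at 144 nt from the gene end (4.29-fold). FOXK1 had a peak of 9.25-fold in replicate 1 and peaks of 2.60, 3.56 and 3.28 in replicate 2, the last of them 178 nt away from the replicate 1 peak without overlap.

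FOXP4, a repressor of the FOXP group that acts in lung and nervous system development, had 6.48-fold and 10.1-fold enrichment at 276 nt, and was the strongest member whose fold was higher in replicate 2. The peak begins 45 nt after the annotated start in both replicates (chr6:41546426-41546844 in replicate 2). In replicate 1 it was listed as 2 blocks, the second on a later stretch of the gene, and it was the only shared member peak that crossed from 1 block to another. The span of FOXP4-AS1, on the opposite strand, also covers it.

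FOXM1, a proliferation factor, had the shared member peak whose midpoint lay nearest to a gene start, at 108 nt (chr12:2877006-2877155, minus strand, in replicate 1). Its nearest base was at 19 nt in both replicates, where FOXK2 had 16 and SOX12 19 nt in replicate 1. Its folds were close, 3.38 and 3.28. RHNO1, whose strand is not in the tables used, has a span that covers this peak as well. FOXO6, the FOXO factor best known from brain, was the opposite case. Its shared peaks lay 20768 and 21464 nt from the start, at 93.7% and 96.9% of the gene span, with 3.08 and 2.84 at the first and 2.67 and 3.23 at the second.

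**Figure D3:**
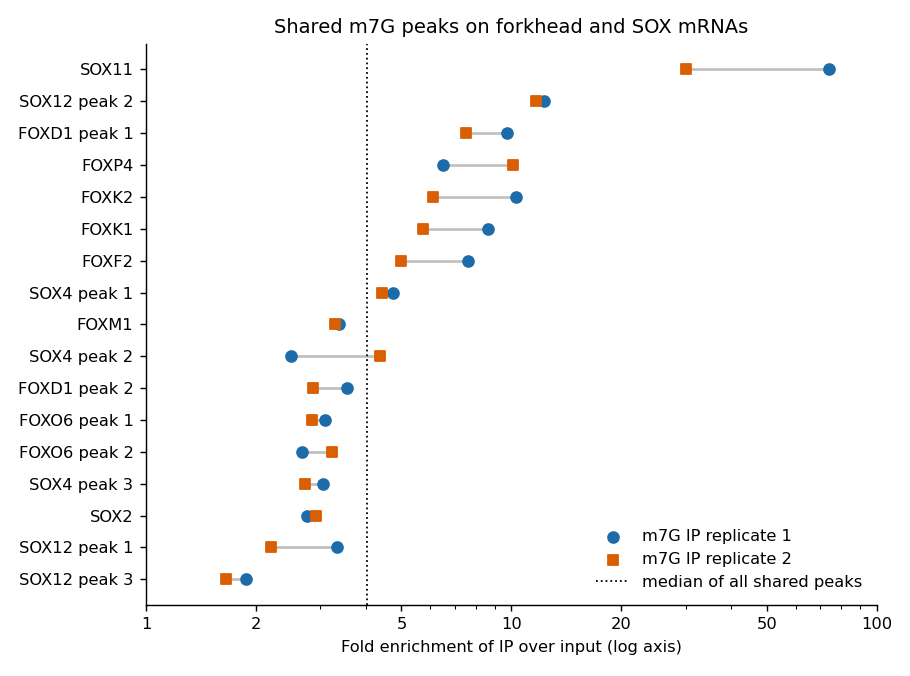
Fold enrichment of IP over input (log axis) at each of the 17 shared forkhead and SOX peaks in replicate 1 (blue circles) and replicate 2 (orange squares), sorted by the geometric mean, with peaks numbered from the 5′ end of the gene. The dotted line is the median of all 2642 shared peaks (4.04); 8 member peaks have both values above 4, and SOX11 stands apart at 74 and 30.

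The median over the 17 shared member peaks of the geometric mean fold was 3.33 (interquartile range 2.94 to 7.93), beside 4.04 (2.46 to 6.77) over all 2642 shared peaks. The range ran from 1.76 at the third SOX12 peak to 47.12 at SOX11. Both replicates reached 4-fold at 8 of 17 (47.1%), beside 42.8% of all. Those were the first FOXD1 and SOX4 peaks, the second SOX12 peak, and the shared peaks of FOXF2, FOXK1, FOXK2, FOXP4 and SOX11. With the strongest shared peak taken for each gene, the member median was 7.02, beside 4.60 for all genes. Over peaks, the member median was 3.54 in replicate 1 alone, beside 4.14 for all, and 4.37 in replicate 2 alone, beside 3.80. The position of the family relative to all peaks therefore turns on whether all peaks or the strongest of each gene are taken, and on the replicate used. Members with a shared peak more often had 2 or more (36.4%, beside 19.6% of all such genes). The part of this in the per-gene median was not tested.

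The 2 replicates differed by a median of 0.30 in log2 fold (a factor of 1.23) at the member peaks, and by the same median over all shared peaks. FOXM1 (0.04) and the middle SOX12 peak (0.07) had the smallest differences, and SOX11 (1.30), the second SOX4 peak (-0.81, lower in replicate 1) and FOXK2 (0.75) the largest. Replicate 1 had the higher fold at 13 of 17 member peaks (76.5%), beside 55.5% of all shared peaks. Of the member peaks, 17 of 25 in replicate 1 (68.0%) and 17 of 26 in replicate 2 (65.4%) overlapped the other table, beside 62.6% and 55.9% of all peaks.

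**Figure D4:**
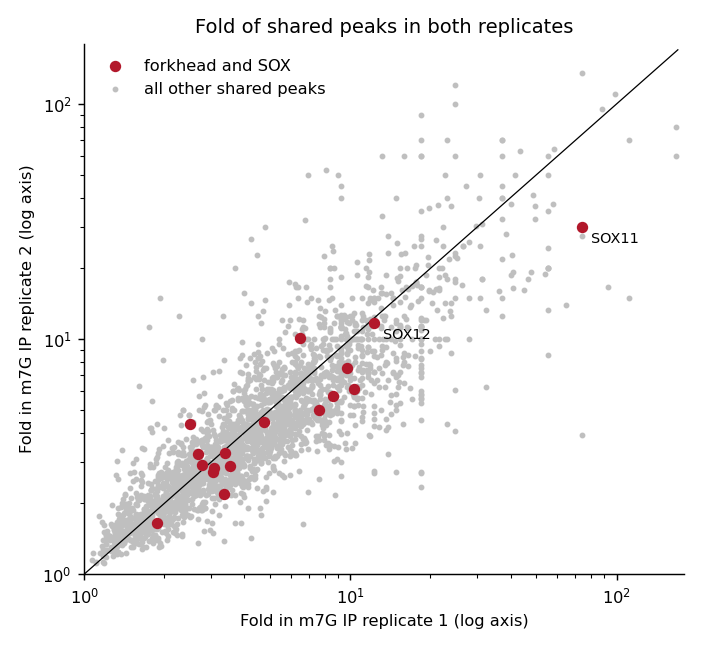
Fold of every shared peak in replicate 1 (horizontal, log axis) and replicate 2 (vertical, log axis); red points are the 17 forkhead and SOX peaks, grey points all others, and the line marks equal folds. SOX12 (12.3 and 11.7) lies near the line, and SOX11 (74 and 30) lies below it.

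The midpoints of shared member peaks ran from 0.24% of the gene span at FOXK1 to 96.9% at FOXO6. The midpoint of 1 of 17 (5.88%), that of FOXM1, was within 200 nt of the annotated start, beside 22.6% of all shared peaks. Within 500 nt it was 7 of 17 (41.2%), beside 35.0% of all. FOXK1, FOXK2 and FOXP4, at 214, 218 and 276 nt, lay just outside the first limit, so the count depends strongly on where it is set. By the nearest base of the peak in place of the midpoint, 5 of 17 were within 200 nt in both replicates, beside 32.1% of all. The median distance was 982 nt, beside 3288.5 nt for all shared peaks, and the median position 21.56% of the gene span, beside 37.82%. Family genes are short: members with a shared peak had a median span of 9002 nt, beside 23939 nt for all genes with one. Distances run along the genome, so introns count in them, while SOX12, SOX4 and FOXD1 lack introns. The part of gene length and of introns in these distances was not tested.

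**Figure D5:**
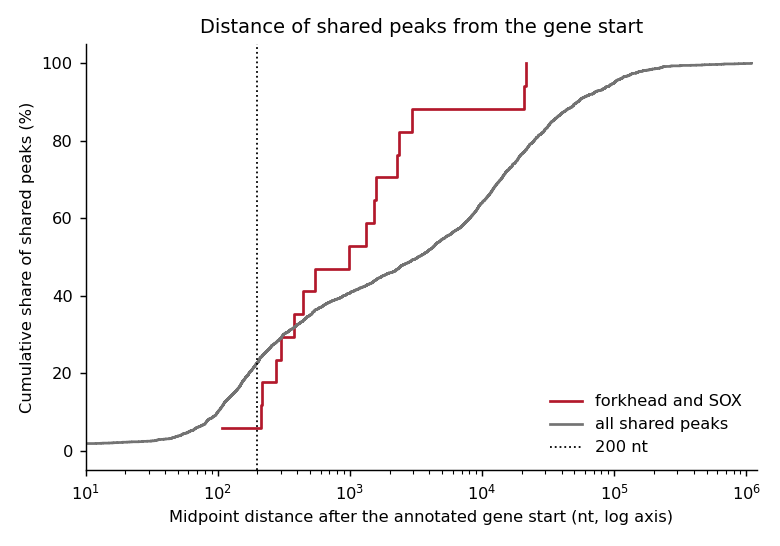
Cumulative share of shared peaks (vertical, percent) by midpoint distance after the annotated gene start (nt, log axis, midpoints before the start drawn at the left edge) for the 17 forkhead and SOX peaks (red) and all shared peaks (grey). At the dotted line of 200 nt the red curve is at 5.88% and the grey one near 22.6%, and by 500 nt the red curve lies above.

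Shared member peaks were mostly single blocks. Of them 16 of 17 (94.1%) were of 1 block in both replicates, beside 59.1% of all. SOX12, SOX4 and FOXD1, which hold many of these peaks, lack introns, so their peaks could only be single blocks. The gap to all peaks is therefore not read as a trait of the member peaks. Shared peaks covered a median of 210 nt in both replicates on members, beside 181 and 206 nt over all. Of the 11 members with a shared peak, 4 had 2 or more (36.4%, beside 19.6% of all genes with a shared peak). These were SOX12 and SOX4 with 3 and FOXD1 and FOXO6 with 2. Split by gene span, 4 of 38 members up to 5000 nt had a shared peak (10.5%, beside 8.13% of all genes of that span), and 7 of 32 longer members had (21.9%, beside 10.9%).

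Peaks found in 1 replicate or at different places were mostly weak by p-value. FOXO3, the stress and insulin-responsive FOXO factor, had 55.5-fold at 1668 nt in replicate 1 and 8.89-fold at 1353 nt in replicate 2, with 149 nt between the 2 peaks. The replicate 1 value was 3 times 18.5, with a log10 p of -4.18. SOX13, a SOXD factor, had 7.40-fold at 273 nt in replicate 1 and 4.41-fold at 50020 nt in replicate 2, so the 2 tables placed it near opposite ends of the gene. FOXJ3 had 6.94 near its gene end and FOXJ2 2.78 near its start, both in replicate 1 alone. FOXD2 had 8.10 at 400 nt after the annotated start, also in replicate 1 alone. A second FOXD2 peak of that replicate, with 4.27, ended 918 nt before the start, within the span of LINC01389 on the opposite strand.

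In replicate 2 alone, FOXC1, a factor of mesenchyme and eye, had 3.86 at 1131 nt, and SOX6 had 5.71 in 2 blocks deep inside its long gene. FOXH1, a DNA-binding partner of SMAD proteins, had 1.67, the lowest fold among the unshared member peaks. The span of KIFC2 also covers the FOXH1 peak, and replicate 2 lists a KIFC2 peak there on the opposite strand. The log10 p of the unshared peaks ran from -9.70 at FOXK1 to -3.32 at FOXJ3.

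The genes that act on FOXO factors were looked at beside them. Of 23 listed FOXO regulators, 10 had a shared peak (43.5%, beside 10.5% of all genes), and the median geometric mean fold at their strongest shared peaks was 3.94. USP7, a deubiquitinase of FOXO proteins, had 16.1-fold and 23.3-fold enrichment, and SIRT1, their deacetylase, 7.73 and 12.4. AKT1, AKT2 and the 14-3-3 genes YWHAB, YWHAE, YWHAG, YWHAH and YWHAQ were also among them. Of 13 listed FOXO target genes 1 had a shared peak (7.69%, beside 10.5% of all genes), GADD45A (8.02 and 13.1), a growth arrest gene. Of 10 listed cell cycle targets of FOXM1, 0 had a shared peak, with a peak on 2 in replicate 1 and on 1 in replicate 2. Of 12 skeletal SOX targets and bone factors, 0 had a shared peak and 1 had a peak in replicate 2. With 10.5% of all genes carrying a shared peak, lists this short hold few in any case. The low counts on targets are therefore not read as a contrast with the regulators. The lists were chosen with earlier results known, and many of the regulators are widely expressed, which was not tested here.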

How the data were processed

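Input and m7G IP libraries of U2OS cells were made with a stranded kit, per the labels' protocols. The submitters' processing notes name STAR and GRCh38, and no source used here names the peak caller or how the fold was scaled. The deposited tables, 1 for each IP replicate, list for each peak a p-value, its log10 and that of the false discovery rate (treated as a score), and a fold, a linear ratio of IP over input. The weakest false discovery rate was 0.049 and 0.0479, so weaker peaks are not listed.

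Names were matched to RefSeq (GRCh38.p14) by symbol or synonym within 2000 nt, for 99.9% and 99.8% of peaks, and for all member peaks by symbol. Mutually best overlaps on the same strand made 2642 shared peaks. The distance of a peak is that of the middle base of its blocks from the annotated start, averaged over both replicates. It is measured along the genome, introns included. The whole multiples of the most frequent fold of at least 10 were taken within 0.05, or 0.5 from a fold of 100. Coordinates are 1-based. Pairing was tested on simulated data. No test between groups was possible with 1 condition, so shares of all genes or peaks stand beside those of the members. Every member with a peak is named, and of other lists up to 3 genes by the lower fold of both replicates, with further names added after their values were seen. Some genes that the rule names are not reported here. Members and lists were chosen with earlier results of these data known. Scripts ran under Python 3.11.15 (pandas 2.3.3, numpy 2.4.6, matplotlib 3.10.9).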

Additional observations from a re-analysis of the deposited data

How the results depend on the processing

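The count of 11 genes with a shared peak was 7 in the 50% most significant peaks of each table, where FOXF2, FOXK1, SOX11 and SOX2 dropped out (6.28% of all genes). It was 10 with 50% reciprocal overlap (8.67% of all genes), 11 with midpoints within 100 nt (9.44%), 9 at a false discovery rate of at most 0.001 (7.72%) and 8 at a fold of at least 4 (5.16%). Any peak without replicate 1, or without replicate 2, gave 16 genes in each case (17.4% and 15.9% of all genes), and a peak in both tables at any place, a setting added after seeing the data, gave 13 (11.6%). The median fold of 3.33 was 7.02 with the strongest peak of each gene, 3.96 with 50% reciprocal overlap, and 3.54 to 4.37 with 1 replicate left out, so that it lies above the value for all peaks (3.80) in replicate 2 alone and below it (4.14) in replicate 1 alone. Leaving out folds that are whole multiples, also added later, gave 3.32. Near the gene start, the count of 1 peak (22.6% of all shared peaks) was 0 within 100 nt (9.66%), 7 within 500 nt (35.0%) and 5 by the nearest base (32.1%). With the distance of 1 replicate alone, an added setting, it was 1 by replicate 2 (22.8%) and 3 by replicate 1 (23.5%), where FOXK1 and FOXK2 joined FOXM1. The causes were not tested. No paired analysis was possible because the input libraries have no values of their own in the tables and the 2 IP replicates form 1 group. Depth is unknown, so no limit of detection can be set for genes without a peak.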

Other observations

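Relatives of the SOX family that share the HMG box had a shared peak on 4 of 16 genes (25.0%, beside 10.5% of all genes). TCF7L1, a repressor of the Wnt pathway, had 11.7-fold and 11.8-fold enrichment 321 nt from its start, close to the values of the middle SOX12 peak. CIC, a repressor downstream of receptor tyrosine kinases, had 6.36 and 4.80, and HMGB2, a chromatin protein, 2.33 and 2.96. Of 16 other developmental regulators of the homeobox, zinc finger and related classes 2 had a shared peak (12.5%). Among them was ZEB1, a driver of the mesenchymal state, with 3.42 and 5.00.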
